A study of Drosophila melanogaster with 4 samples.

Results

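The regions described here are the places on the X chromosome of Drosophila melanogaster that the authors listed as bound by L(3)mbt. They were chosen by their chromosome name alone, as the X rows of the authors' stricter peak list, and number 609, or 18.4% of that list. Of the other regions, 2655 lay on the large autosomal arms and 50 on chromosome 4 or on Het scaffolds, which hold heterochromatin. Each is 400 bp wide and carries 1 deposited value, called the score here and read as the mean signal per base over the region. The lists name no strain and are taken here to stand for whole groups of samples, which the sources at hand do not state. The L(3)mbt ChIP group joined 1 sample of the w1118 strain, a white-eyed laboratory stock, and 1 of Canton S, a wild-type stock. The input group joined DNA of both strains that saw no antibody. All 4 samples were a mixture of larval brain and of imaginal discs of the wing, haltere and hindmost (the third) leg, taken in the third instar from animals kept at 25 °C. The ChIP used a guinea pig antibody to a part of the protein. No genotype other than the strain and no treatment is named, and the labels do not give the sex of the larvae or the number of animals.

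L(3)mbt is a chromatin protein with MBT domains, which bind methylated histone tails, and its loss lets the larval brain overgrow into a tumour that expresses genes of the germ line. It is known as a repressor that works in larger complexes on the chromatin of gene starts and insulators. The X chromosome is set apart from the autosomes by dosage: male flies carry a lone X, and a complex guided by the roX RNAs raises its transcription towards that of the paired X chromosomes of females. The autosomes used for comparison are the large arms 2L, 2R, 3L and 3R. Positions below are those of the deposited lists, whose chromosome names are the ones used in release 5 of the genome. No genome sequence or gene map of that release was used, so neither the genes nor the bases at these positions were analysed here.

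No list holds a value per strain, so a spread between replicates cannot be given. Intervals in brackets are exact 95% intervals over peaks for counting error alone, and the depth of sequencing is unknown. They assume that peaks fall independently. On X, the variance of the number of peaks in windows of 200 kb was 1.96 times its mean, so intervals of densities are likely too narrow. The spread among the 4 autosomal arms is given beside the values of X for that reason. With X alone on one side, an exact two-sided permutation test over the 5 arms could not go below p = 0.20, and none was made.

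L(3)mbt peaks were about as dense on X as on the autosomal arms. X carried 27.2 peaks per Mb (25.0 to 29.4), inside the range of the 4 arms, which ran from 25.6 on 2L to 30.1 on 2R. The ratio of X to the 4 arms was 0.988 (0.903 to 1.08). The authors' longer list, at a false discovery rate of 3% in place of 0.5%, held 239 further regions on X. They made up 28.2% of the X rows of that list, against 27.5% over all chromosomes and 26.8 to 28.0% on the 4 arms. Below both filtered lists lies an unfiltered list of ChIP calls of 270 bp, each with a height of at least 5. It held 3411 calls on X, of which 701 (20.6%) overlapped an L(3)mbt peak, against 20.8% over all chromosomes. The 2710 calls outside the peaks stood at 121 per Mb on X and at 112 to 136 per Mb on the arms, a ratio of 0.996 (0.955 to 1.04). The regions found in the longer list only stood at 10.7 per Mb on X and at 9.57 to 11.5 per Mb on the arms. In the density of peaks, of further regions and of calls outside peaks, X thus lay within the range of the autosomal arms.

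Scores on X ran from 7.54 to 264. Their median was 15.5 (14.4 to 16.6), and the medians of the 4 arms ran from 14.5 on 2R to 17.2 on 3R. The lower part of the distribution was close to that of the arms, with a first quartile of 10.1 on X and of 9.84 to 10.5 on the arms. The upper part was not. The score that 10% of the peaks exceeded was 70.9 on X, below the 75.7 to 99.9 of the arms. The score that 1% exceeded was 183 on X and 213 to 246 on the arms. The highest score of X, 264, was below the highest of every arm, which ranged from 318 on 2R to 359 on 3R. These differences are descriptions, and the levels at which they are given were chosen after the values had been seen.

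**Figure D1:**
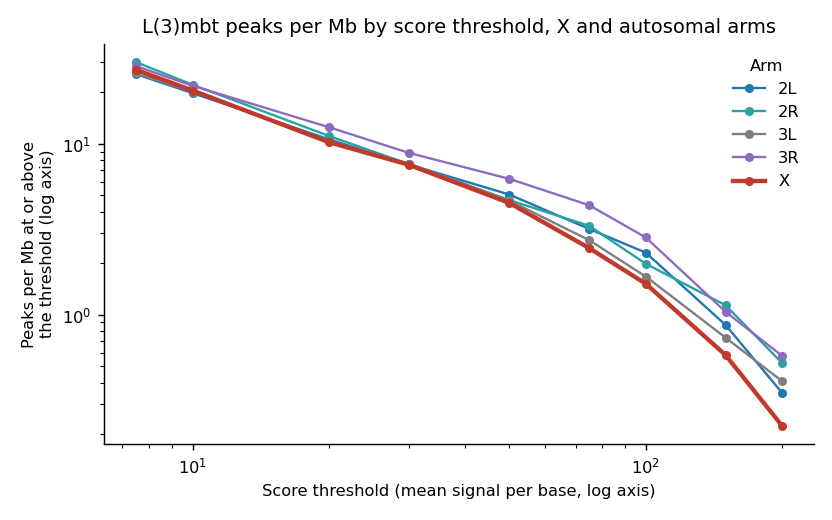
Number of L(3)mbt peaks per Mb (vertical, log axis) that reach each score threshold (horizontal, log axis), with 1 line for X and 1 for each large autosomal arm. X lies among the arms at thresholds of 7.5 and 10 and below all 4 of them at 20 and more, with 4.51 peaks per Mb at 50 against 4.65 on the lowest arm, and 1.52 against 1.67 at 100.

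Strong L(3)mbt peaks were fewer on X. A score of 100 or more was reached by 34 peaks of X (5.58%, 3.90 to 7.71%), against 7.69% of the peaks over all chromosomes. That was 1.52 per Mb on X, against 1.67 on 3L, 1.99 on 2R, 2.31 on 2L and 2.83 on 3R. The ratio of X to the 4 arms together was 0.681 (0.460 to 0.981). It rested in part on 3R, the arm richest in strong peaks, since without 3R the ratio was 0.766 and its interval (0.510 to 1.12) included 1. Arm by arm, the interval left out 1 for 3R (0.536, 0.347 to 0.810) but not for 2L (0.658, 0.414 to 1.03), 2R (0.764, 0.471 to 1.23) or 3L (0.908, 0.559 to 1.47). A score of 50 or more was reached by 101 peaks of X (16.6%), against 18.5% over all chromosomes. That share was 15.6% on 2R, below the share of X, and 18.0 to 21.9% on the other arms. The ratio of densities at 50 or more was 0.865 (0.691 to 1.07). Heights in the unfiltered ChIP list went the same way, but they come from the same ChIP group and largely from the same sites. At 200 or more there were 42 calls on X, and 42 X peaks overlapped a call that tall. Heights are therefore no independent check on the scores. The ratio was 0.992 over all calls, 0.851 (0.691 to 1.04) at a height of 100 or more and 0.663 (0.467 to 0.920) at 200 or more. Without 3R the ratio at 200 or more was 0.780, and its interval (0.542 to 1.10) included 1. Of the 100 highest-scoring peaks of the whole list 13 lay on X, and of the first 15 there were 0. X held 18.4% of all peaks in the list, and both counts are small.

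**Figure D2:**
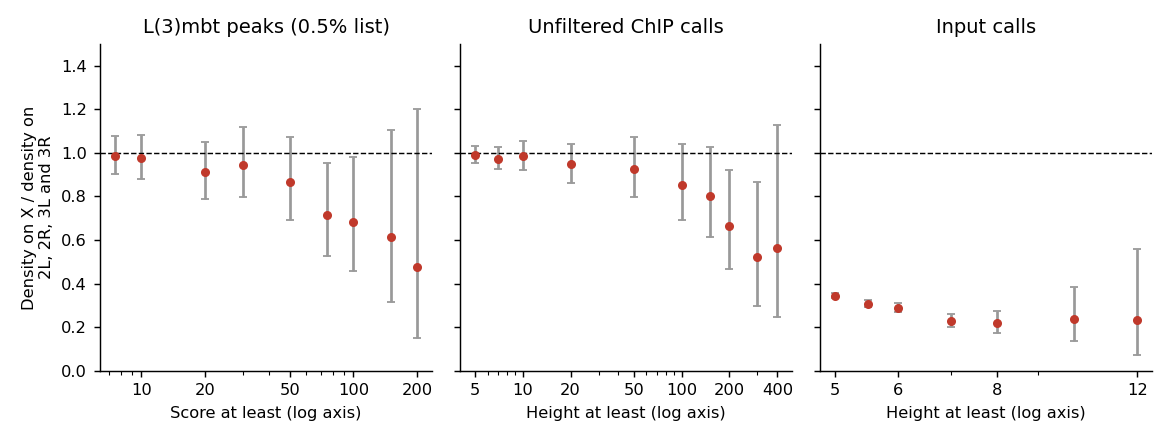
Density on X divided by the density on the 4 large autosomal arms (vertical) for calls that reach a given score or height (horizontal, log axis), in 3 panels for the L(3)mbt peaks, the unfiltered ChIP calls and the input calls. Bars are exact 95% intervals that cover counting error only. The ratio of L(3)mbt peaks falls from 0.988 to 0.681 between all peaks and scores of 100 or more, and that of input calls from 0.345 to 0.231 between all calls and heights of 7 or more.

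The highest peak of X lay from 1846954 to 1847353 and scored 264, which ranked it 18th in the whole list. Its call in the unfiltered list had a height of 748. It stood alone, with the next L(3)mbt peak 30180 bp away and the nearest input call at 1332 bp. The second, from 10662269 to 10662668, scored 237 and had a weaker neighbour at 4079 bp. The third and the fifth shared one neighbourhood: a score of 235 was listed from 17645732 to 17646131 and one of 224 from 17714260 to 17714659. Between them in rank was the region from 3999739 to 4000138, with a score of 228. These 5 were the only X peaks above a score of 200, and the sixth scored 185.

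The next 10 peaks of X scored from 185 down to 135. A stretch between 5.4 and 5.9 Mb held 3 of them, scoring 185 (5418533 to 5418932), 183 (5507070 to 5507469) and 161 (5886189 to 5886588). Near the tip of the chromosome, the region from 423792 to 424191 scored 173, and its nearest input call, at 372 bp, was the closest among the 15. The regions from 11588844, from 13457478 and from 16645861 scored 176, 172 and 163. Those from 9581767, from 3028582 and from 7572860 scored 159, 139 and 135. Every one of the 15 matched exactly 1 call of the unfiltered list, with heights from 298 to 748, and 0 of them overlapped an input call. Both were common among X peaks at large, since 527 of all 609 matched exactly 1 call and only 14 overlapped an input call. The 15 were thus spread from the tip to 17.7 Mb, and none of them lay in the remaining 4.7 Mb towards the centromere. Peaks scoring 100 or more did reach further, with 4 from 18000001 to 19000000, 2 from 19000001 to 20000000 and 1 from 20000001 to 21000000.

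At the other end of the scale, the 3 lowest-scoring X peaks of the stricter list scored 7.5425, 7.545 and 7.565. The highest-scoring X regions that only the longer list holds scored 7.5, 7.4775 and 7.465. Scores therefore ran on across the limit between the lists without a gap. The regions of X found in the longer list only lay at a median of 6303 bp (4905 to 8098) from the nearest peak of the stricter list, and 63 of 239 (26.4%, 20.9 to 32.4%) lay within 2000 bp. On the arms those shares were 23.4 to 25.1%.

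Score and height can be set against each other for each peak, since every X peak overlapped at least 1 unfiltered ChIP call. The median score per unit of height was 0.450 (0.445 to 0.457) on X, and it was 0.442 to 0.451 on the 4 arms. Among peaks whose call was under a height of 20, it was 0.538 on X (123 peaks) and 0.537 to 0.543 on the arms. At heights of 200 or more it was 0.422 on X (42 peaks) and 0.417 to 0.429 on the arms. The stricter list admits peaks only above a limit on score, on X and on the arms alike. For low calls this limit by itself keeps the score per unit of height from being small. The values under a height of 20 therefore cannot tell whether calls on X were turned into scores as elsewhere. At heights of 200 or more, where the limit matters little, the median on X lay within the range of the arms. How the authors' caller made scores, and whether input entered them, is not stated in the sources at hand.

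Along the chromosome, peaks were spread from the tip to the region next to the centromere. The 22 full windows of 1 Mb held from 18 to 40 peaks, with a median of 28. The window from 1000001 to 2000000 was the fullest, with 40 peaks, 4 of them at a score of 100 or more, and it also held the most ChIP calls outside peaks, 212 against a median of 117.5. The window from 21000001 to 22000000 held the fewest peaks, 18, and also the fewest input calls, 69 against a median of 158.5. The last 0.4 Mb that the lists cover held 2 peaks. The part of X away from the centromere, up to the middle of its span, carried 310 peaks and the part towards it 299, a ratio of 0.965 (0.820 to 1.13). Median scores were 16.2 (14.4 to 18.4) and 14.8 (13.3 to 16.3), with overlapping intervals.

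**Figure D3:**
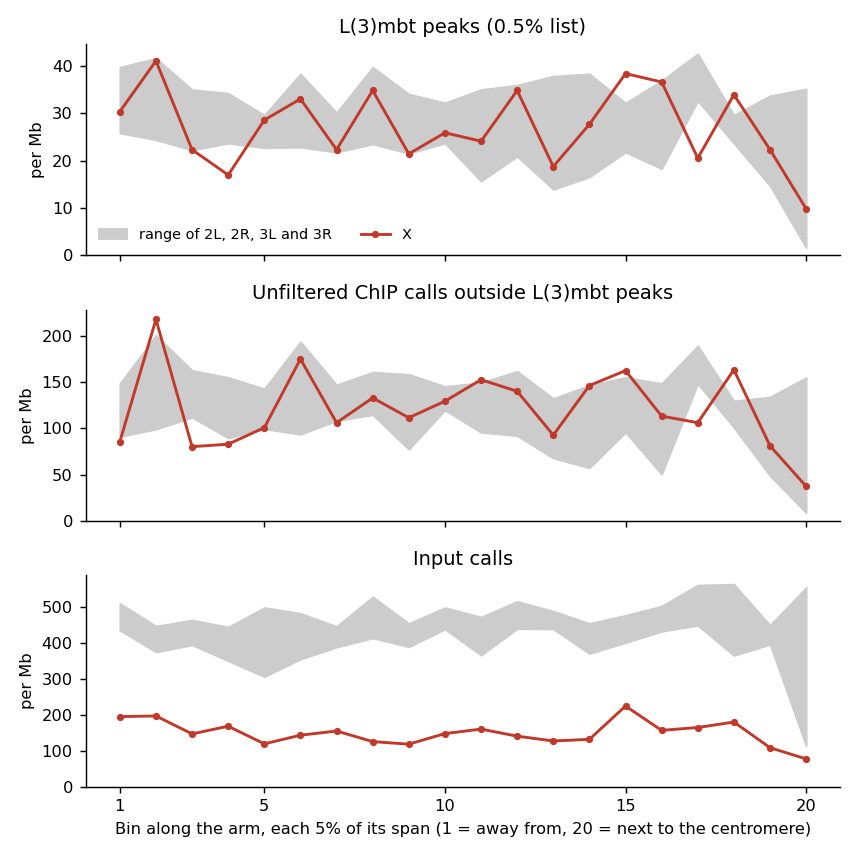
Density per Mb (vertical) of L(3)mbt peaks, of unfiltered ChIP calls outside them and of input calls in 20 equal bins along each arm (horizontal), counted from the end away from the centromere. The line is X and the grey band spans the lowest to the highest of 2L, 2R, 3L and 3R. X peaks lie within the band in 15 of 20 bins, while the input line lies below the band in all 20 bins.

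Counted in windows of 200 kb, X held 5.43 peaks on average. The fullest windows were from 7800001 to 8000000 and from 17600001 to 17800000, with 14 peaks each. They differed in strength. The first had no peak at 100 or more and a highest score of 57.3, whereas the second held the third and the fifth strongest peak of X and a median score of 29.6. The window directly after the first, from 8000001 to 8200000, held 13 more peaks with a median score of 10.8, so these 400 kb carried 27 peaks. Windows with 13 peaks also lay from 16400001 to 16600000 and from 19400001 to 19600000. The latter had 81 ChIP calls outside its peaks, the most of these 5 windows, and a highest score of 113. Altogether 11 of 112 full windows (9.82%) held 10 or more peaks, and on the arms 9.02 to 19.0% did. The fullest 11 windows carried 21.5% of the X peaks in full windows, within the 19.4 to 21.8% that the fullest windows of the arms carried, taken as 10% of their windows. Across the 112 windows, counts of peaks and of ChIP calls outside peaks had a Pearson r of 0.692, a description of windows that share the same libraries, with 0.620 to 0.738 on the arms.

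Windows without any L(3)mbt peak numbered 5 on X (4.46%), and from 2 on 3R to 10 on 2R on the arms. They began at 10800001, 14200001, 19800001, 21600001 and 22000001. The emptiest was the fourth, with 0 ChIP calls and 2 input calls, so that little was listed there from either library. The first was not silent, with 17 ChIP calls up to a height of 12.2, 28 input calls and 1 region of the longer list. In the others ChIP calls numbered from 2 to 5, beside 12 to 21 input calls.

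The longest stretch of X between neighbouring peaks ran from 21504169 to 21844895, over 341 kb near the centromere, and held 2 ChIP calls and 2 input calls. The next, 338 kb from 7235098 to 7572859, held 44 input calls, 9 ChIP calls and 2 regions of the longer list. It ended at the fifteenth strongest peak of X, and the first of the fullest windows began 227 kb after it. A stretch of 332 kb from 14141894 to 14474373 held 26 input calls and 11 ChIP calls, the tallest with a height of 10.98. Those from 19760278 to 20056588 and from 21931748 to 22226504 were 296 and 295 kb long. The longest distance between the centres of neighbours was 341 kb on X, 317 kb on 3R, 373 kb on 2L, 619 kb on 3L and 780 kb on 2R.

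The median spacing of neighbouring L(3)mbt peaks on X was within the range of the autosomal arms, while the first quartile lay below that of every arm. The median distance between the centres of neighbours was 17964 bp (15603 to 20695), within the 15941 to 20862 bp of the arms. The first quartile was 5948 bp, below the 6341 to 7234 bp of the arms. A neighbour within 2000 bp was found for 129 peaks of X (21.2%, 18.0 to 24.6%), against 18.9% over all chromosomes and 17.0 to 19.7% on the arms. Within 5000 bp it was found for 241 peaks (39.6%, 35.7 to 43.6%), against 36.9% over all chromosomes. Both shares were the highest of the 5 large arms, and their intervals included the values of 2L, 2R and 3L but not of 3R.

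**Figure D4:**
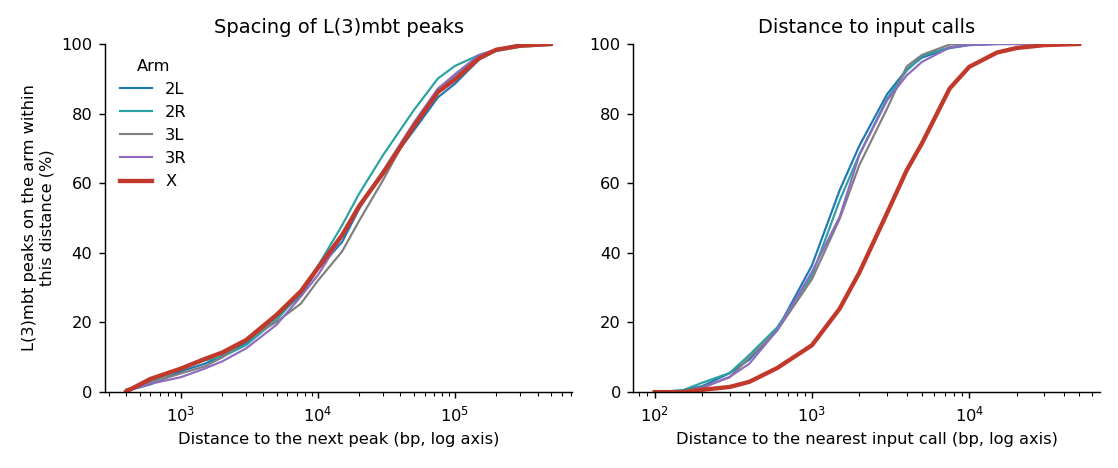
Share of the L(3)mbt peaks of an arm (vertical, percent) whose distance to the next peak (left) or to the nearest input call (right) is at most the value on the horizontal log axis, with 1 line per arm. The median spacing on X, 17964 bp, lies within the range of the arms. The distances of X peaks to input are longer, with a median of 2927 bp, and X has fewer input calls per Mb.

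The closest pair of X spanned 15033278 to 15034031, with overlapping regions whose centres were 354 bp apart, and the scores of its members were similar, 13.1 and 12.7. In others of the closest 5 the scores lay further apart. In the pair from 9552394 to 9553214 a peak of 8.74 lay 421 bp from one of 96.1, and in that from 19532291 to 19533100 a peak of 29.7 lay 410 bp from one of 8.56. The remaining pairs spanned 1235516 to 1236320, with scores of 9.57 and 8.15, and 9002922 to 9003740, with scores of 19.8 and 11.9.

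When peaks no more than 5 kb apart were joined, 368 X peaks stayed single, 160 formed 80 pairs and 69 formed 23 chains of 3. The longest chains had 4 members and numbered 3. The strongest of them, from 4578694 to 4582310, had its high scores at the outer ends, 73.9 and 46.4, with 11.6 and 16.1 between. That from 19531786 to 19537586, in one of the fullest windows, scored 14.8, 29.7, 8.56 and 22.3, and that from 18406355 to 18411858 scored 15.5, 28.5, 7.60 and 17.8. Among chains of 3, those with the highest summed score ran from 1406773 to 1412330 and from 19507500 to 19512766, and each was led by its first peak, at 81.6 and at 113. The order by summed score was set after the data were seen.

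Isolated peaks of X had higher scores than close neighbours. The 136 peaks with no other within 20000 bp had a median score of 18.7 (16.2 to 26.6), and 25.7% of them (18.6 to 33.9%) reached 50. The 80 peaks with a neighbour under 1000 bp away had a median of 12.9 (11.1 to 15.6), and 6.25% of them (2.06 to 14.0%) reached 50. Over the 4 arms together the same classes had medians of 21.0 and 12.2. Arm by arm, the medians were 17.0 to 27.2 and 10.9 to 13.4, and the shares reaching 50 were 24.2 to 35.1% and 7.81 to 21.9%. The 21.9% was on 3R. On 3L isolated peaks had a median of 17.0, and those with a neighbour at 5000 to 20000 bp had 17.1. The trend was not even, since the 49 X peaks with a neighbour at 1000 to 2000 bp had a median of 17.2 (11.1 to 20.2).

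Input calls set X apart from every autosomal arm. They stood at 150 per Mb (145 to 155) on X, where the arms had 421 to 446, a ratio of 0.345 (0.333 to 0.357). The shortage was larger among taller calls. The ratio was 0.290 (0.271 to 0.309) at heights of 6 or more and 0.231 (0.203 to 0.261) at 7 or more. A height of 7 was reached by 7.93% of the X calls and by 11.5 to 12.4% of those on the arms. It was present in all parts of the chromosome, since X lay below all 4 arms in each of 20 equal bins. ChIP calls showed no such shortage at low heights, as given above. Whether the control list was called from input by itself or against ChIP, and how its heights were scaled, is not stated in the sources at hand. The sex of the larvae, and with it the number of X copies per cell, was not given either, and its part in either list was not tested.

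L(3)mbt peaks of X lay further from input calls when counted in bp. Such a distance grows by itself where input calls are sparser, so it is not a separate trait of the X peaks. The median distance between the centre of an X peak and that of the nearest input call was 2927 bp (2629 to 3227), against 1302 to 1510 bp on the arms. Within 1000 bp of an input call lay 13.5% of the X peaks, where 32.4 to 36.4% did on the arms. At the far end, 40 X peaks (6.57%) had no input call within 10000 bp, compared with 5 of 2655 on the 4 arms. The most remote, from 21045889 to 21046288, scored 56.0 and was 40983 bp from the nearest input call. Set against the mean spacing of input calls on the same arm, 6673 bp on X and 2240 to 2372 bp elsewhere, the median distance was 0.439 of it on X and 0.562 to 0.661 of it on the arms. That fraction was the lowest of the 5 large arms, so relative to input spacing the X peaks lay closer to input calls, not further away.

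Overlap between both kinds of list was rare on X, where there were also fewer input calls per Mb to overlap. Sharing of at least 1 bp with an input call was found for 14 X peaks (2.30%, 1.26 to 3.83%), against 5.70% over all chromosomes and 5.67 to 7.08% on the arms. Counted from the other side, 0.417% of the X input calls (0.228 to 0.699%) touched an L(3)mbt peak, within the 0.377 to 0.552% of the arms. The strongest X peak among the 14, from 15990581 to 15990980, scored 72.6 and shared only 10 bp with an input call of height 5.10. The next ones began at 20503172, 12678988, 255480 and 12097671 and scored 26.3, 22.1, 20.2 and 18.4. The last of these touched the tallest input call of the group, with a height of 10.6, over 5 bp. The median score of the 14 was 11.8, and that of the other X peaks was 15.6. No overlap on X exceeded 178 bp.

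The surroundings of X peaks were compared with those of autosomal peaks by setting each arm against its own distant level. As on the arms, input calls were scarce and other ChIP calls frequent close to X peaks, but some of the factors lay outside the range of the arms. No input call was centred within 100 bp of a peak, on X or on any of the 4 arms. From 200 to 1000 bp away on X, input calls stood at 95.4 per Mb, or 0.578 times their density 10 to 20 kb away. On the arms this factor was 0.538 to 0.616. From 1000 to 2000 bp it was 0.954 on X, above the 0.837 to 0.898 of the arms, and from 400 to 500 bp it was 0.795 on X (16 calls), above their 0.446 to 0.666. The narrow bins varied. From 200 to 300 bp X was below the arms, at 0.249 (5 calls) against 0.326 to 0.393. From 300 to 400 bp X was within the range of the arms, at 0.497 against 0.446 to 0.703, and from 500 to 750 bp just above it, at 0.616 against 0.542 to 0.611. Further out X was also above the arms in some bins. It was 1.00 against 0.878 to 0.974 from 2000 to 3000 bp, and 1.16 against 0.935 to 1.03 from 5000 to 7500 bp. From 7500 to 10000 bp it was 1.05 against 0.989 to 1.01. ChIP calls outside the peaks showed the opposite pattern. They were 2.81 times as dense from 200 to 1000 bp as 10 to 20 kb away on X, the lowest value of the 5 large arms, which otherwise ran from 2.99 on 2R to 3.37 on 3R. By definition these calls do not overlap a peak, and none was centred under 300 bp on any large arm, which lowers this factor on all of them. From 400 to 500 bp the factor was 3.47 on X (75 calls) and 4.47 to 5.02 on the arms. It was also below the arms from 500 to 750 bp, at 3.51 against 3.77 to 4.06. In the bins on either side, from 300 to 400 bp (3.37) and from 750 to 1000 bp (2.74), X was within the range of the arms. It was below them again from 1000 to 2000 bp, at 1.64 against 1.75 to 1.84, and from 7500 to 10000 bp, at 1.01 against 1.02 to 1.15. Within 1000 bp of an L(3)mbt peak lay 17.3% of the ChIP calls outside peaks on X, and 17.4 to 19.8% of those on the arms.

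**Figure D5:**
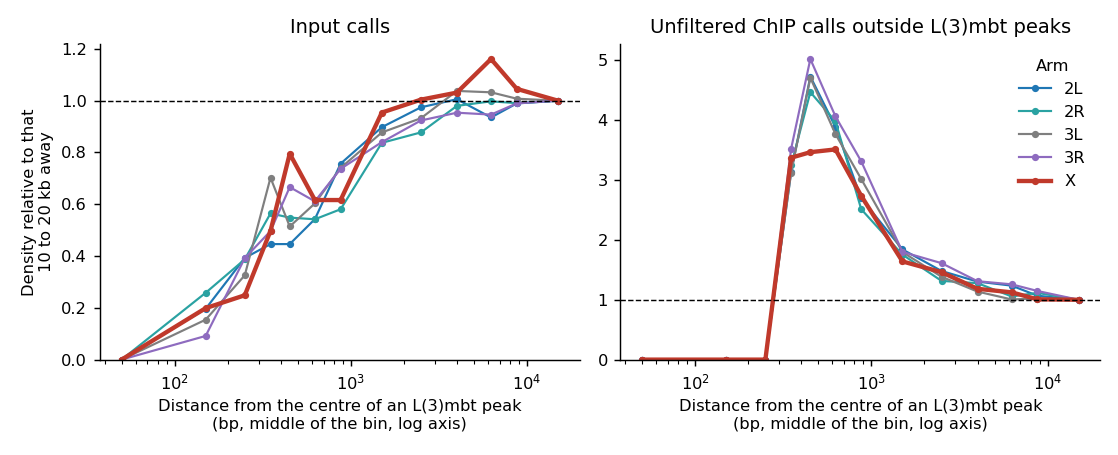
Density of input calls (left) and of unfiltered ChIP calls outside L(3)mbt peaks (right) by distance from the centre of an L(3)mbt peak (horizontal, log axis), divided by the density 10 to 20 kb away on the same arm (vertical), with 1 line per arm. Input calls of X reach 0.578 and ChIP calls 2.81 times their distant level over 200 to 1000 bp. No ChIP call outside peaks is centred under 300 bp on any arm shown. The X line of ChIP calls lies lower than those of the arms near 450 bp, but among them from 300 to 400 bp.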

How the data were processed

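Sequencing covered 4 samples, 2 of L(3)mbt ChIP and 2 of input. Per the submitters' processing notes, Bowtie was used, with no version named. The deposited lists carry the name pypeak. Their build, settings and handling of the strains are not stated in the sources at hand. The authors deposited 1 signal value per peak, called score in the filtered lists (400 bp regions) and height in the unfiltered ones (270 bp). Score times width was whole, within 0.01, for 100% of peaks. Columns from other samples numbered 0. The false discovery rates of 0.5% and 3% were read from the names of the lists.

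Starts were shifted to count from 1. Span ran from the first base to the end of the last peak in any list. Overlap meant at least 1 bp, and distances join centres. Ratios of density have conditional binomial intervals, densities Poisson, shares Clopper-Pearson and medians order-statistic intervals, all exact at 95%. No random placement and no test was used, since the lists give no value per sample. The code was tested on simulated data. Peaks, windows, stretches, pairs and chains were named by a rule of rank. The most remote peak was named after its value was seen. The members, thresholds and lists were chosen with earlier results of these data known. A gene table of release 6 was not joined to the peaks, because the builds differ. Python 3.11.15, numpy 2.4.6, pandas 2.3.3, scipy 1.17.1 and matplotlib 3.10.9 were used.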

Additional observations from a re-analysis of the deposited data

How the results depend on the processing

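Of 44 alternatives over 10 results, 31 stayed within the exact interval of the main value, or within 1.5 times a count. The density of L(3)mbt peaks on X relative to the arms and that of ChIP calls outside them stayed there in all alternatives run. So did the ratio at scores of 100 or more, whose 7 alternatives were chosen after seeing the data. Its main interval, 0.460 to 0.981, is wide and the alternatives draw on largely the same sites, so this shows little about its stability. The interval of that ratio included 1 at scores of 50 or more (0.865) and 150 or more (0.615) and without 3R (0.766). The longer list moved the median score of X to 10.9, the median spacing to 11892 bp and the score per unit of height to 0.458. The stronger 50% of the list moved the spacing to 47344 bp and the score per unit of height to 0.434. Merging neighbours within 1000 bp moved the spacing to 21350 bp. These 3 settings add, remove or join peaks by construction. The share of X peaks overlapping an input call was 1.15% with at least 50 bp shared and 0.985% with at least 100 bp. With input heights of 6 or more it was 0.821%, the distance to input was 7594 bp and the input ratio was 0.290. The input ratio was 0.231 at 7 or more. Fewer input calls enter in these settings. Windows of 250 kb left 1 window without a peak. No paired analysis was possible because the lists hold no value per sample, and for the same reason no replicate could be left out. Depth is unknown. Small numbers limit the statements on the 34 peaks scoring 100 or more, the 14 that overlap input, and the smaller sets named.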

Other observations

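Some tall ChIP calls of X were in neither filtered list. Of the X calls with a height of 20 or more that overlapped no filtered region, there were 17, and 16 of them lay within 1000 bp of an L(3)mbt peak. The tallest, with a height of 133, lay from 17426324 to 17426593, 388 bp from a peak that scored 107. The next, with a height of 124, lay from 1180978 to 1181247, 742 bp from a peak that scored 102. One stood apart, from 21495460 to 21495729, with a height of 31.5 and the nearest L(3)mbt peak 8374 bp away. X had 515 calls of height 20 or more in all. On the arms such calls outside both lists numbered 9 of 515 on 2L, 17 of 548 on 2R, 20 of 570 on 3L and 26 of 708 on 3R. Of these, 9, 15, 16 and 22 lay within 1000 bp of an L(3)mbt peak, so such a position was common on every large arm.

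XHet, the scaffold set of the heterochromatin of the X chromosome, was kept apart from X. It held 1 L(3)mbt peak, from 84618 to 85017, with a score of 11.5. The unfiltered ChIP list had 9 calls there, up to a height of 21.5, and the input list had 14, up to a height of 6.80.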
